A study of Mus musculus with 7 samples.

Results

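Aminoacyl-tRNA synthetases load each transfer RNA with its amino acid, and they are described here across 7 RNA-seq libraries of tumour-infiltrating CD8 T cells. The rule lists the genes by name: 36 of the 53656 gene rows were taken, 20 for enzymes of the cytosol and 16 for enzymes of the mitochondrion, whose symbols end in 2. Every library was made from OT1 cells, CD8 T cells with a transgenic receptor for an ovalbumin peptide, which were sorted by CD8 and CD45.1 from B16-OVA-GP61 tumours, a mouse melanoma line that carries ovalbumin and the GP61 epitope. SMARTA CD4 T cells, which carry a transgenic receptor for GP61, were absent from the tumours behind 4 libraries and present for the other 3. By its title the series asks how CD4 T cells take part in reprogramming CD8 T cells that recognise the tumour, and its labels give a single contrast, with against without SMARTA cells. Both groups thus share the OT1 receptor, the tumour line and the sorting gate; host strain, age and time of harvest are not given in the sources used here. All OT1 cells carry the same receptor, so the libraries show 1 specificity only. The labels do not say whether replicates came from separate animals or pools, and a p-value below therefore sets a difference against the variation of these 7 libraries, some of which can be technical.

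A synthetase activates its amino acid with ATP and joins it to the matching transfer RNA, which then brings it to the ribosome. The cytosolic enzymes serve the translation of nuclear genes, and several of them, with the scaffold proteins Aimp1, Aimp2 and Eef1e1, form the multisynthetase complex. The mitochondrial enzymes are encoded in the nucleus, imported, and charge the transfer RNAs of the organelle. Activated T cells raise protein synthesis strongly. When charged transfer RNA runs short, the kinase GCN2 and the transcription factor ATF4 raise genes of amino acid uptake and synthesis and many cytosolic synthetases, and MYC is also known to raise synthetase genes in growing lymphocytes.

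The libraries held 38092722 to 49438357 counts of read pairs, and all 36 genes passed the filter on low counts. Values below are in CPM, counts scaled to the size of each library with TMM factors, given in replicate order, and as mean ± SD with n = 4 without and n = 3 with SMARTA cells. Among the 36 synthetase genes the lowest count in any library was 45, for Mars2 in SMARTA replicate 3, and the highest was 56686, for Lars2. Of 15896 genes tested, 500 (3.15%) passed the edgeR quasi-likelihood test at a Benjamini-Hochberg adjusted p under 0.05, 1.63% lower and 1.52% higher with SMARTA. Libraries are named no-SMARTA or SMARTA with their replicate number. The count of 500 became 65, 98 and 17 with no-SMARTA replicate 1, 3 or 4 left out, and 907, 37 and 53 with SMARTA replicate 1, 2 or 3 left out. Scaled by library totals alone, 29.1% of the calls were higher with SMARTA, against 48.2% with TMM factors and 60.7% with GC trends removed. The label of CD8 T cells was borne out by Cd8a, at 1028 to 1948 CPM, and Cd3e, at 1051 to 1820 CPM, with Cd4 at 0.65 to 8.48 CPM. Red cell transcripts stood out in SMARTA replicate 1, where the erythroid markers summed to 5061 CPM against 10.0 to 239 CPM in the other libraries. Melanoma markers summed to 6.75 to 61.5 CPM, highest in no-SMARTA replicate 2.

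Transcripts of the cytosolic synthetases were lower in the libraries with SMARTA cells as estimates, but none passed the test. Their summed level was 3860, 3226, 3517 and 4107 CPM without SMARTA (3677 ± 386) and 2870, 2907 and 2844 CPM with SMARTA (2874 ± 31.7), so the groups did not overlap. The log2 fold change, with minus without SMARTA, was negative for 19 of the 20 genes, where 50.2% of all genes tested were negative. It ran from -0.91 for Gars to 0.36 for Vars, with a median of -0.35 against -0.00338 over all genes. By edgeR 0 of 20 were called (3.15% of all genes were), and 7 had an unadjusted p under 0.05, each lower with SMARTA, which held for 9.37% of all genes, with a further 9.18% higher. DESeq2 called 4 of the 20 lower (Farsb, Gars, Rars and Tars), beside 5.74% of all genes called lower by that tool. The limma-voom fit called 0, beside 1.7% of all genes called lower. With sample quality weights limma-voom called 5 lower (Farsb, Hars, Lars, Rars and Tars), beside 4.81% of all genes. The other scalings kept 18 or 19 of the 20 estimates negative, Sars, at -0.001, being the gene that lay near 0 in the main scaling.

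All 3 libraries with SMARTA lay below all 4 without for 8 cytosolic genes (Tars, Farsb, Rars, Lars, Gars, Iars, Hars and Yars), a pattern seen in 10.5% of all genes. The lowest of the 7 values was in a library with SMARTA for all 20 cytosolic genes, against 51.3% of all genes, and was spread over the 3 libraries, 6 in replicate 1, 7 in replicate 2 and 7 in replicate 3. The highest value was in a library without SMARTA for 19 of the 20, against 50.7% of all genes, 10 of them in replicate 1 and 8 in replicate 4. Genes of 1 family share libraries and are not independent, so these counts describe the libraries and were not tested.

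**Figure D1:**
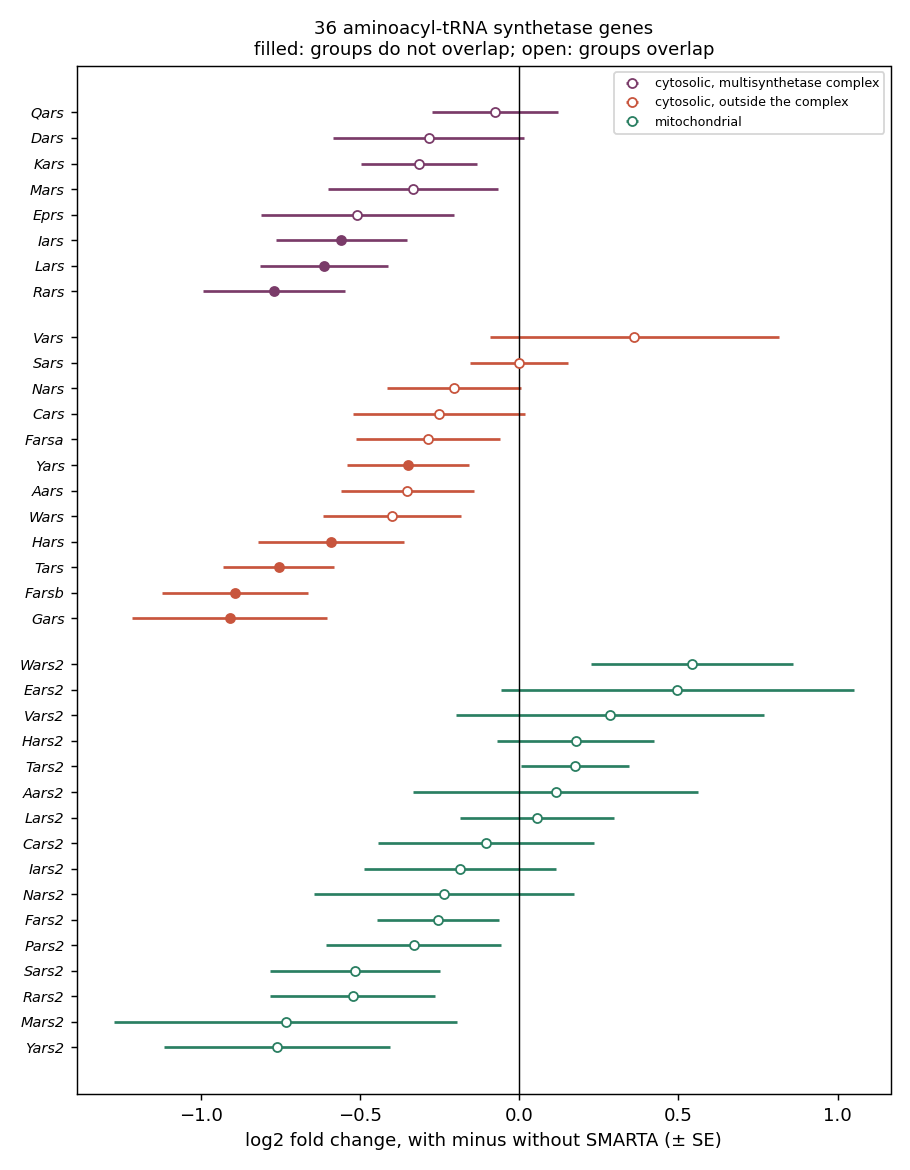
Log2 fold change (x axis, with minus without SMARTA, bars ± SE) of the 36 synthetase genes, one per line, in 3 blocks: members of the multisynthetase complex, other cytosolic enzymes and mitochondrial enzymes. Filled points mark the 8 genes whose groups do not overlap, all of them cytosolic; 19 of 20 cytosolic points lie left of 0, and the mitochondrial points lie on both sides.

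Tars, the threonyl enzyme (chr15:11382301-11399665, minus strand, GRCm38), had the smallest p of the family. Its values were 205, 184, 227 and 248 CPM without SMARTA and 129.7, 134 and 120.3 CPM with SMARTA. The lowest library without SMARTA lay above the highest with SMARTA. The estimate was 1.69-fold lower with SMARTA (216 ± 27.5 against 128 ± 6.86 CPM, log2 -0.76 ± 0.18 SE, edgeR adjusted p = 0.0553). Left out one at a time, no library brought this p under 0.05 (0.0549 to 0.176).

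Farsb (chr1:78417975-78488897, minus strand) encodes the beta subunit of the phenylalanyl enzyme. It measured 233, 130.2, 185 and 224.5 CPM without SMARTA and 100.5, 109 and 103 CPM with SMARTA (1.86-fold lower, log2 -0.89 ± 0.23 SE, edgeR adjusted p = 0.0746). The library nearest to the other group was no-SMARTA replicate 2, and with it left out the adjusted p was 0.0394. In the other 6 fits with 1 library left out Farsb was not called, and the p reached 0.201. Farsa, the alpha subunit of the same enzyme, measured 159 to 201 CPM without and 116.5 to 191 CPM with SMARTA, so its groups overlapped (log2 -0.29 ± 0.23 SE). The exons of Farsb share 9.47% of their bases with Sgpp2 on the other strand, and the counting did not use strand.

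Rars, Lars and Iars, which charge arginine, leucine and isoleucine, are members of the multisynthetase complex. Rars (chr11:35808381-35834506, minus strand) measured 192, 116, 143 and 182 CPM without and 82.7, 99.98 and 95.3 CPM with SMARTA (1.71-fold lower, log2 -0.77 ± 0.22 SE, edgeR adjusted p = 0.102). Lars, whose product also acts as a leucine sensor for mTORC1, measured 164, 122, 152 and 189 CPM without and 99.2, 94.3 and 113.5 CPM with SMARTA (1.53-fold lower, log2 -0.61 ± 0.20 SE, edgeR adjusted p = 0.143). Iars (chr13:49682100-49734267, plus strand) measured 196, 129, 178 and 212 CPM without and 122, 119 and 123 CPM with SMARTA (1.47-fold lower, log2 -0.56 ± 0.21 SE, edgeR adjusted p = 0.189). In these 3 genes no-SMARTA replicate 2 was the lowest of its group.

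Over the whole complex, 8 of 8 estimates were negative, with a median of -0.42, and 3 genes did not overlap. The 12 cytosolic enzymes outside it had 11 negative estimates, a median of -0.35 and 5 genes without overlap. Of all genes 50.2% were negative and 10.5% were lower without overlap. Dars, Kars, Mars and Qars, the aspartyl, lysyl, methionyl and glutaminyl enzymes of the complex, lay between -0.34 and -0.08 with overlapping groups. By catalytic fold the medians lay close together, at a median log2 fold change of -0.35 for the 9 of class I and -0.33 for the 10 of class II. Eprs carries both folds in 1 protein, the glutamyl and the prolyl enzyme. It measured 207, 285, 255 and 291 CPM without and 98.0, 242 and 207 CPM with SMARTA (log2 -0.51 ± 0.30 SE, edgeR adjusted p = 0.43), and the low value of SMARTA replicate 1 set much of its spread.

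Gars and Kars each serve cytosol and mitochondrion from 1 gene. Gars (chr6:55038007-55079500, plus strand), the glycyl enzyme, measured 32.2, 48.0, 36.3 and 26.0 CPM without and 16.85, 25.5 and 14.5 CPM with SMARTA (1.88-fold lower, log2 -0.91 ± 0.31 SE, edgeR adjusted p = 0.156). It had the largest estimate of the family, but no-SMARTA replicate 4 lay close above SMARTA replicate 2. Kars (chr8:111993443-112011323, minus strand) measured 314.5, 236, 255 and 303 CPM without and 227, 195 and 246 CPM with SMARTA (log2 -0.32 ± 0.18 SE, edgeR adjusted p = 0.412), and its groups overlapped.

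Hars and Yars, the histidyl and tyrosyl enzymes, complete the genes without overlap. Hars measured 199, 127.5, 146 and 185 CPM without and 123, 85.0 and 119 CPM with SMARTA (1.51-fold lower, log2 -0.59 ± 0.23 SE, edgeR adjusted p = 0.212). Yars (chr4:129189760-129219607, plus strand) measured 174, 123, 126 and 129.6 CPM without and 105, 103 and 117 CPM with SMARTA (1.27-fold lower, log2 -0.35 ± 0.19 SE, edgeR adjusted p = 0.384). In both genes the nearest libraries of the groups lay close together, and for Yars the spread without SMARTA came from replicate 1. Hars and Hars2 lie head to head and share exon bases, 9.81% of those of Hars, so their counts can bear on each other.

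**Figure D2:**
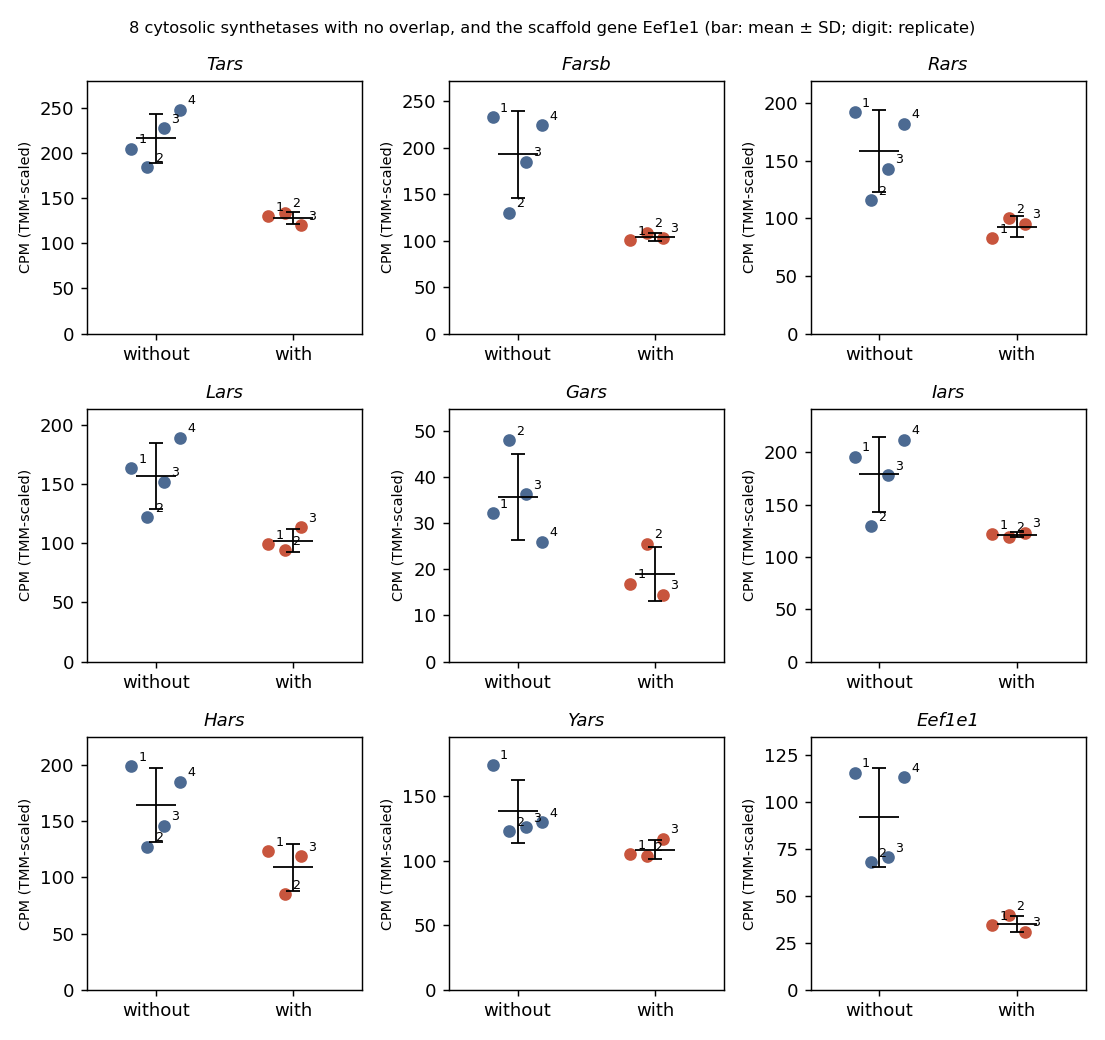
CPM (y axis, from 0, TMM-scaled) of the 8 cytosolic synthetases without overlap and of Eef1e1, one panel each, for 4 libraries without and 3 with SMARTA; points carry the replicate number and bars are mean ± SD. With SMARTA, Tars (120.3 to 134 CPM) and Farsb (100.5 to 109 CPM) each lie below every library without SMARTA of the same gene. In Iars, Hars, Yars and Gars the nearest libraries of the groups lie close together.

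Wars, the tryptophanyl enzyme (chr12:108860030-108894174, minus strand), is known to be induced by interferon gamma. It measured 227, 139, 197 and 202 CPM without and 171, 134 and 129.9 CPM with SMARTA (1.32-fold lower, log2 -0.40 ± 0.22 SE, edgeR adjusted p = 0.376), and the groups overlapped. Sars, the seryl enzyme (chr3:108424865-108445209, minus strand), had the estimate nearest to 0, with 289 to 336 CPM without and 285 to 334 CPM with SMARTA. Vars, the valyl enzyme (chr17:35000987-35016322, plus strand), was the only cytosolic gene with a positive estimate (log2 0.36 ± 0.45 SE, edgeR adjusted p = 0.744). It ranged from 65.1 CPM in SMARTA replicate 3 to 272 CPM in SMARTA replicate 1, wider than the whole group without SMARTA (81.8 to 188 CPM). Aars, Cars and Nars, for alanine, cysteine and asparagine, had overlapping groups and estimates of -0.35 ± 0.21, -0.25 ± 0.27 and -0.20 ± 0.21 (log2 ± SE).

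Mitochondrial synthetases showed no common direction. Their estimates were negative for 9 of 16 genes and ran from -0.76 for Yars2 to 0.54 for Wars2, with a median of -0.15. By edgeR 0 of 16 were called, and 0 had an unadjusted p under 0.05 in either direction. DESeq2 and limma-voom, with or without quality weights, also called 0. No mitochondrial gene had groups that stayed apart, against 10.5% of all genes lower and 8.73% higher. The smallest adjusted p was 0.298. The summed level was 1589, 1615, 1246 and 1249 CPM without (1425 ± 205) and 1721, 1203 and 1416 CPM with SMARTA (1447 ± 260). Lars2 alone made up 58.3% to 69.8% of that sum, and the other 15 genes together measured 485, 509, 520.0 and 491.5 CPM without and 519, 484 and 459 CPM with SMARTA. The difference between the cytosolic and the mitochondrial class was not tested, since the genes of a class share the same 7 libraries.

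Yars2, the mitochondrial tyrosyl enzyme (chr16:16302965-16309640, plus strand), measured 5.67, 6.18, 3.60 and 6.54 CPM without and 2.63, 3.83 and 3.26 CPM with SMARTA (log2 -0.76 ± 0.35 SE, edgeR adjusted p = 0.298). Only no-SMARTA replicate 3 lay among the values with SMARTA. Rars2, for arginine (chr4:34614957-34660167, plus strand), measured 80.7, 45.75, 47.65 and 67.6 CPM without and 36.5, 42.8 and 46.8 CPM with SMARTA (log2 -0.52 ± 0.26 SE, edgeR adjusted p = 0.331). Sars2, for serine (chr7:28741992-28753871, plus strand), measured 45.8, 52.25, 58.3 and 52.8 CPM without and 51.7, 31.6 and 26.4 CPM with SMARTA (log2 -0.52 ± 0.27 SE, edgeR adjusted p = 0.355). In Rars2 the overlap came from no-SMARTA replicate 2, and in Sars2 from SMARTA replicate 1.

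Wars2, for tryptophan (chr3:99141068-99239186, plus strand), had the largest positive estimate, at 16.8, 8.61, 10.1 and 15.4 CPM without and 15.3, 17.45 and 22.8 CPM with SMARTA (log2 0.54 ± 0.32 SE, edgeR adjusted p = 0.422). Its values overlapped in SMARTA replicate 1. Mars2, for methionine (chr1:55237177-55248470, plus strand), measured 10.4, 8.05, 5.34 and 5.70 CPM without and 6.64, 5.30 and 1.32 CPM with SMARTA (log2 -0.73 ± 0.54 SE, edgeR adjusted p = 0.533). Fars2, for phenylalanine (chr13:36117412-36726280, plus strand), measured 45.2, 40.9, 46.4 and 44.8 CPM without and 35.2, 35.0 and 41.2 CPM with SMARTA (log2 -0.26 ± 0.19 SE, edgeR adjusted p = 0.542). The Fars2 groups overlapped only in no-SMARTA replicate 2 and SMARTA replicate 3. Lars2, for leucine (chr9:123366927-123462666, plus strand), measured 1104, 1106, 726 and 757 CPM without and 1202, 719 and 958 CPM with SMARTA (log2 0.06 ± 0.24 SE, edgeR adjusted p = 0.937), and its direction turned under several settings. The other mitochondrial genes (Aars2, Cars2, Ears2, Hars2, Iars2, Nars2, Pars2, Tars2 and Vars2) had overlapping groups and estimates between -0.33 for Pars2 and 0.50 for Ears2.

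**Figure D3:**
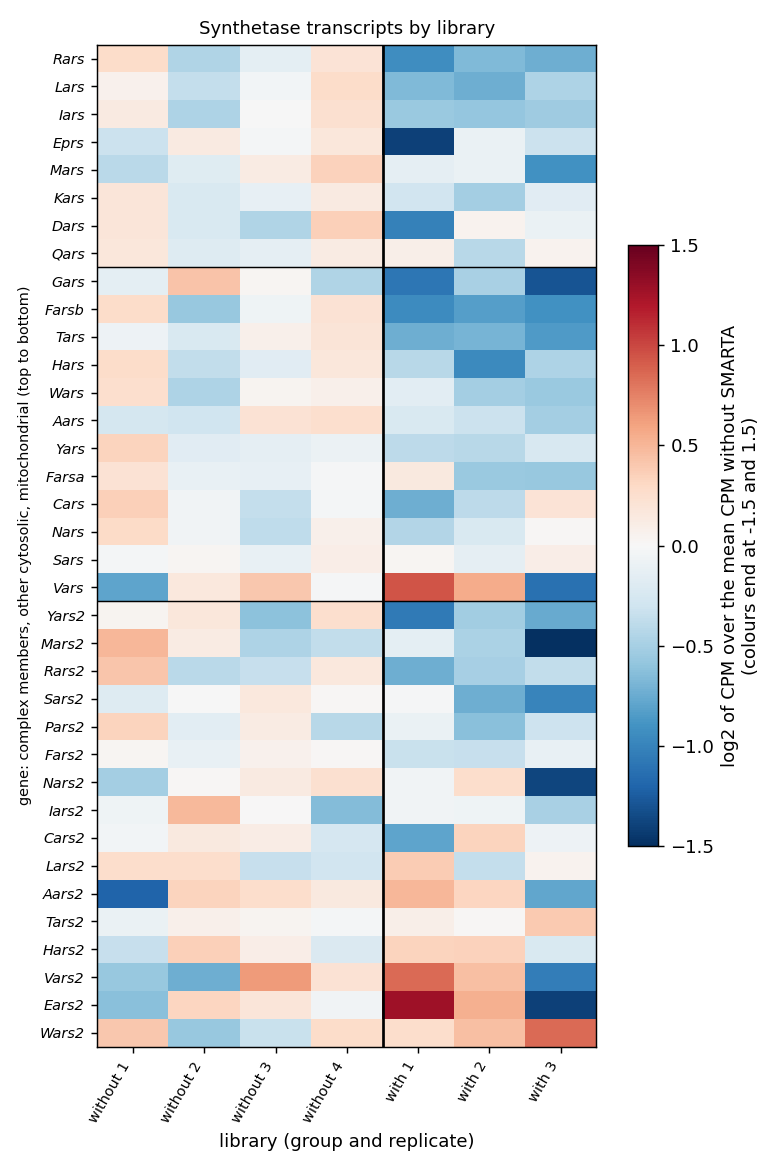
Each cell gives the log2 of a gene's CPM in 1 library over its mean CPM without SMARTA (colour, ending at -1.5 and 1.5); rows are the 36 synthetase genes in 3 blocks and columns the 7 libraries. Cytosolic rows (upper blocks) are mostly blue in all 3 libraries with SMARTA, whereas in the mitochondrial block SMARTA replicate 3 is bluer than SMARTA replicates 1 and 2.

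Library by library, the log2 deviation of each gene was taken from its mean without SMARTA. The median over the cytosolic genes was -0.40, -0.43 and -0.47 in SMARTA replicates 1 to 3. It was 0.19, -0.19, -0.07 and 0.16 in no-SMARTA replicates 1 to 4. The 3 libraries with SMARTA were thus alike, and no-SMARTA replicate 2 lay nearest to them. For the mitochondrial genes the medians were -0.01, 0.01 and -0.38 with and -0.02, 0.12, 0.09 and 0.01 without SMARTA, so SMARTA replicate 3 stood apart from the rest. For GC content another deviation was used, that of a gene from its mean over all 7 libraries, and GC content tracked it in 2 libraries. Over the 36 genes, this deviation and the GC content of a gene's transcripts had r = -0.611 in no-SMARTA replicate 1. The value was r = 0.546 in SMARTA replicate 1, and between -0.252 and 0.276 in the others (a description over genes of the same libraries). With GC trends removed over all genes, a setting chosen after seeing the data, 17 of 20 cytosolic estimates were negative, the median was -0.29 beside 0.08 over all genes, and 0 were called. With SMARTA replicate 1 left out, the library rich in red cell transcripts, all 20 cytosolic estimates were negative and their median was -0.44. The median of all genes was -0.0988 in that fit, and 12 of 16 mitochondrial estimates were negative. Relative to all genes the cytosolic median was -0.341 there, beside -0.347 in the main fit.

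Levels can be compared between genes only per length. In CPM per kilobase of annotated exons, the cytosolic genes had a median of 39.4 without SMARTA, 10.2-fold that of the mitochondrial genes at 3.86. Hars was the highest cytosolic gene (82.75 ± 16.7 CPM per kilobase), next to Farsb (73.7 ± 17.9), Dars (66.1 ± 16.7), Nars (65.75 ± 12.4), Kars (62.1 ± 8.43) and Sars (60.8 ± 3.78), neighbours that did not differ beyond their spread. Gars was the lowest cytosolic gene (11.4 ± 2.98 CPM per kilobase), close to Eprs (14.3 ± 2.11) and Cars (15.55 ± 3.205). With SMARTA the top of the order was different: Sars (60.7 ± 4.87), Nars (57.1 ± 8.88), Hars (54.9 ± 10.6) and Dars (54.3 ± 19.0) led, again within their spread, and Farsb stood at 39.7 ± 1.6 CPM per kilobase. The lengths join the exons of all annotated isoforms, which lowers the value of genes such as Eprs (18102 bases) and Mars2 (11294 bases).

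Among mitochondrial genes Lars2 stood alone, at 83.3 ± 18.95 CPM per kilobase without SMARTA, as high as the top cytosolic genes. Whether reads of ribosomal RNA add to the Lars2 count, and so to its share of the mitochondrial sum, was not tested. The ribosomal rows had overlapping groups: Rn18s-rs5 ranged from 618 to 1789 CPM and mt-Rnr2 from 595 to 4304 CPM, both highest in no-SMARTA replicate 2. In replicate order, Rn18s-rs5 measured 686.5, 1789, 1026 and 785 CPM without and 1568, 618 and 635 CPM with SMARTA. The mt-Rnr2 row measured 1380, 4304, 642 and 1072 CPM without and 595, 1164 and 1443 CPM with SMARTA. Lars2, beside them, measured 1104, 1106, 726 and 757 CPM without and 1202, 719 and 958 CPM with SMARTA. Rars2 (21.8 ± 6.04), Tars2 (21.5 ± 1.18), Sars2 (15.8 ± 1.55) and Hars2 (14.9 ± 3.33) came next, and Mars2 was the lowest of the 36, at 0.652 ± 0.207 CPM per kilobase. The median coefficient of variation between libraries was 19.7% without and 15.6% with SMARTA for cytosolic genes, and 23.3% and 23.1% for mitochondrial genes.

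**Figure D4:**
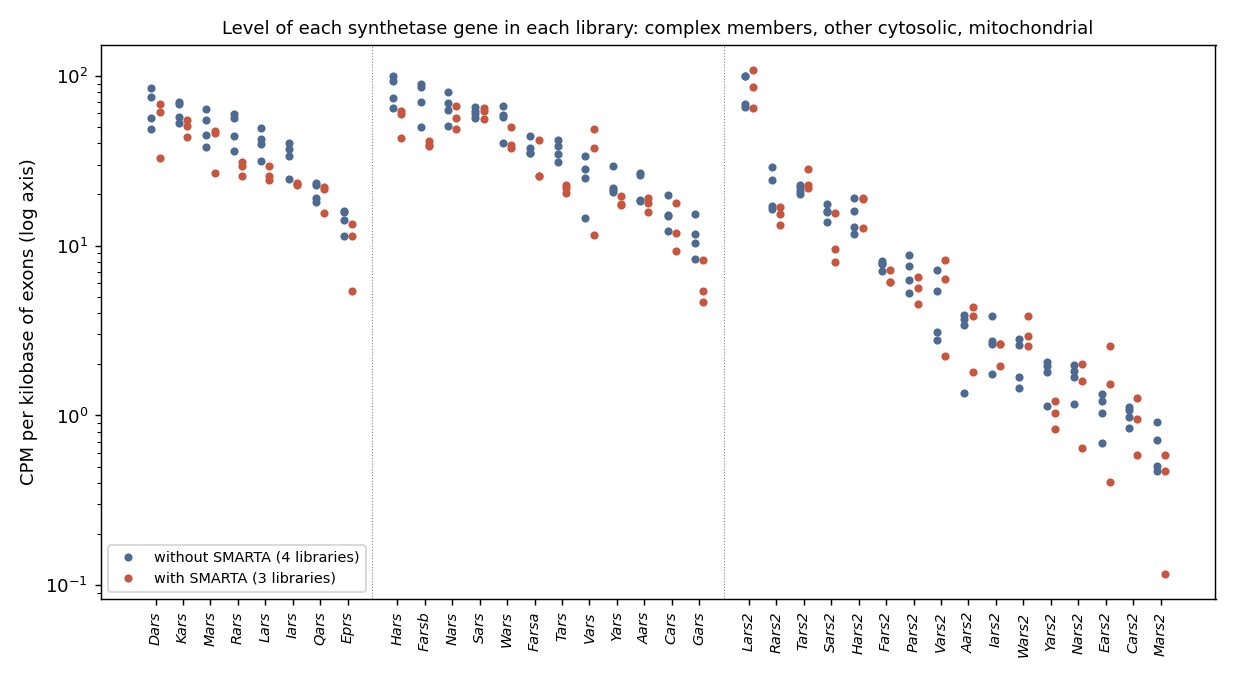
CPM per kilobase of exons (y axis, log scale) of each synthetase gene in each library, 4 points without and 3 with SMARTA, ordered within 3 blocks by the mean without SMARTA. Cytosolic genes lie in a narrow band between 11.4 (Gars) and 82.75 (Hars) on average without SMARTA, and mitochondrial genes run from 83.3 (Lars2) down to 0.652 (Mars2).

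The mitochondrial enzymes can each be set beside the cytosolic enzyme for the same amino acid, in 16 pairs, with Eprs standing for both glutamate and proline and Farsa for phenylalanine. The cytosolic estimate was the lower of the pair in 11 pairs and not in 5 (methionine, asparagine, serine, valine and tyrosine). The widest gaps, named after their values were seen, were glutamate (cytosolic minus mitochondrial -1.01, log2), tryptophan (-0.94) and threonine (-0.93). For glutamate the level of Eprs over that of Ears2, per kilobase, was 16.5, 11.8, 11.6 and 15.6 without and 2.11, 8.69 and 28.2 with SMARTA. The groups overlapped there, and the highest and the lowest of the 7 ratios were both in libraries with SMARTA. For threonine the level of Tars over that of Tars2 was 1.73, 1.38, 1.73 and 1.99 without and 0.961, 1.04 and 0.7225 with SMARTA. For tryptophan the level of Wars over that of Wars2 was 23.3, 27.9, 33.8 and 22.6 without and 19.3, 13.25 and 9.81 with SMARTA. The threonine and tryptophan ratios were lower in every library with SMARTA than in any library without, as a description with no test. The same held for arginine, with Rars over Rars2 at 2.04 to 2.57 without and 1.75 to 2.005 with SMARTA. In each of the other pairs the ratios of the groups overlapped. No share over all genes is at hand for such ratios. Leucine was the pair in which the mitochondrial gene was higher in all 7 libraries, with Lars over Lars2 between 0.2375 and 0.718.

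Genes around the synthetases were taken from 8 lists of 66 genes, of which 63 were tested. Of these 5 were called lower and 1 higher (1.63% and 1.52% of all genes). Eef1e1, also known as AIMP3 and a scaffold of the multisynthetase complex, was called lower. Its values were 116, 67.9, 70.5 and 113 CPM without and 34.4, 39.7 and 30.9 CPM with SMARTA, with a wide gap between the groups (2.625-fold lower, log2 -1.39 ± 0.27 SE, edgeR adjusted p = 0.0375). The call was lost with no-SMARTA replicate 1, 3 or 4 left out (adjusted p = 0.092, 0.0606 and 0.112) and with SMARTA replicate 2 or 3 left out (0.107 and 0.115). Aimp2 measured 107, 79.8, 74.7 and 85.4 CPM without and 54.3, 39.7 and 39.2 CPM with SMARTA and had no overlap (log2 -0.97 ± 0.22 SE, edgeR adjusted p = 0.0547). With 1 library left out this p was 0.0297 to 0.177, under 0.05 only without SMARTA replicate 1. Aimp1 measured 75.2, 63.7, 52.6 and 65.3 CPM without and 48.65, 45.6 and 58.8 CPM with SMARTA and overlapped (log2 -0.33 ± 0.21 SE). The scaffold genes thus had 3 of 3 negative estimates, the same direction as the complex enzymes they hold.

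Of the genes downstream of charging, the cytosolic elongation factors had 5 of 5 negative estimates (50.2% of all genes) and 3 lower without overlap (10.5% of all genes), and 0 were called. Eef1g measured 332, 312, 302 and 345 CPM without and 235, 187 and 207.5 CPM with SMARTA (log2 -0.62 ± 0.16 SE, edgeR adjusted p = 0.0776). With 1 library left out this p was 0.0434 to 0.223, under 0.05 only without SMARTA replicate 1. Eef1b2, another subunit of the factor that reloads Eef1a1, measured 207, 189, 146 and 193 CPM without and 139.7, 122 and 122 CPM with SMARTA (log2 -0.52 ± 0.18 SE, edgeR adjusted p = 0.173). Eef1a1 itself, which carries charged transfer RNA to the ribosome, and Eef2 had estimates of -0.05 and -0.10 with overlapping groups. The mitochondrial elongation factors had 4 of 5 negative estimates, 0 called and 0 without overlap. Tsfm measured 37.2, 44.4, 65.5 and 57.8 CPM without and 53.1, 34.8 and 14.6 CPM with SMARTA, and Gfm1 measured 43.9, 74.9, 80.4 and 87.9 CPM without and 82.55, 55.8 and 31.25 CPM with SMARTA. Both overlapped widely, and SMARTA replicate 3 was the lowest library of each.

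Mitochondria make glutaminyl-tRNA with an amidotransferase, whose subunits are Qrsl1, Gatb and Gatc. Qrsl1 measured 39.7, 37.7, 35.8 and 40.8 CPM without and 35.9, 28.6 and 26.4 CPM with SMARTA (log2 -0.35 ± 0.21 SE), and Gatb measured 22.65, 15.4, 19.7 and 16.5 CPM without and 18.5, 14.3 and 14.35 CPM with SMARTA (log2 -0.24 ± 0.26 SE). Neither passed the test, and 0 of the 4 genes of that list did. Among editing and synthetase-like proteins 0 of 5 were called: Aarsd1, which clears mischarged alanyl-tRNA, measured 8.19, 5.37, 7.23 and 6.35 CPM without and 5.47, 3.47 and 4.59 CPM with SMARTA, and Tarsl2, a second threonyl enzyme, measured 3.57, 2.24, 2.28 and 1.25 CPM without and 0.0424, 1.59 and 1.18 CPM with SMARTA. In SMARTA replicate 1 Tarsl2 lay below the 0.0636 CPM that 3 counts make there. For selenocysteine, which is made on its transfer RNA, 0 of 5 genes were called. Sephs1 measured 141, 74.3, 97.98 and 116.5 CPM without and 89.99, 74.3 and 93.3 CPM with SMARTA, and Sepsecs measured 17.85, 19.6, 27.7 and 23.2 CPM without and 18.2, 30.6 and 10.6 CPM with SMARTA, both with overlap.

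The amino acid starvation list holds GCN2 (Eif2ak4), ATF4 and known targets. It also holds Gcn1l1 and Eif2s1, parts of the pathway upstream of ATF4, so counts over the list are not of targets alone. Of 27 genes 25 were tested, 17 had negative estimates (50.2% of all genes), and 4 were called lower and 0 higher (1.63% and 1.52% of all genes). The 4 serve amino acid uptake and serine and folate metabolism. Slc7a5, the light chain of the large neutral amino acid transporter, measured 17.5, 18.3, 14.2 and 12.3 CPM without and 3.265, 4.31 and 3.88 CPM with SMARTA (log2 -2.03 ± 0.29 SE, edgeR adjusted p = 0.0175). Psat1, an enzyme of serine synthesis, measured 261, 118, 170.4 and 188 CPM without and 57.3, 55.6 and 52.9 CPM with SMARTA (log2 -1.74 ± 0.27 SE, edgeR adjusted p = 0.0206). Slc7a1, which imports arginine and lysine, measured 82.5, 78.7, 92.25 and 116 CPM without and 49.6, 30.05 and 24.4 CPM with SMARTA (log2 -1.41 ± 0.29 SE, edgeR adjusted p = 0.0424). Shmt2, a mitochondrial enzyme of serine and glycine metabolism, measured 358, 258, 289 and 304 CPM without and 188, 112.5 and 108 CPM with SMARTA (log2 -1.15 ± 0.25 SE, edgeR adjusted p = 0.046). In all 4 genes the groups were well apart.

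These calls depended on single libraries. Slc7a5 lost its call with no-SMARTA replicate 1 or 4 left out (adjusted p = 0.0561 and 0.063) and with SMARTA replicate 2 or 3 left out (0.063 and 0.0611). Psat1 lost it when no-SMARTA replicate 3 or 4 (0.0559 and 0.0803) or SMARTA replicate 2 or 3 (0.0816 and 0.0714) was left out. Slc7a1 and Shmt2 lost it when any library other than SMARTA replicate 1 was left out, at adjusted p = 0.0604 to 0.148 and 0.0627 to 0.152. The direction of all 4 was kept in each of these fits.

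The transcription factor Atf4 did not stand apart: it measured 155, 281, 204 and 210.5 CPM without and 206, 174 and 151.5 CPM with SMARTA (log2 -0.27 ± 0.23 SE, edgeR adjusted p = 0.608). Of the 25 tested genes of the list, 8 lay lower and 1 higher without overlap (10.5% and 8.73% of all genes). Other members, named after their values were seen, are given for each direction. Asns, the asparagine synthetase and a textbook ATF4 target, measured 75.2, 50.9, 57.55 and 51.2 CPM without and 14.2, 25.8 and 30.2 CPM with SMARTA, without overlap (log2 -1.33 ± 0.31 SE, edgeR adjusted p = 0.0557). Ddit3, the stress factor CHOP, measured 32.3, 71.8, 26.5 and 41.6 CPM without and 75.8, 98.9 and 105.5 CPM with SMARTA, higher without overlap (log2 1.12 ± 0.34 SE, edgeR adjusted p = 0.121). Trib3, also a target of ATF4 and CHOP, had a positive estimate with overlap (log2 1.00 ± 0.52 SE). So did Slc3a2, the other chain of the Slc7a5 transporter (log2 0.62 ± 0.36 SE, edgeR adjusted p = 0.418). The median of the starvation list was -0.36, beside -0.35 for the cytosolic synthetases.

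**Figure D5:**
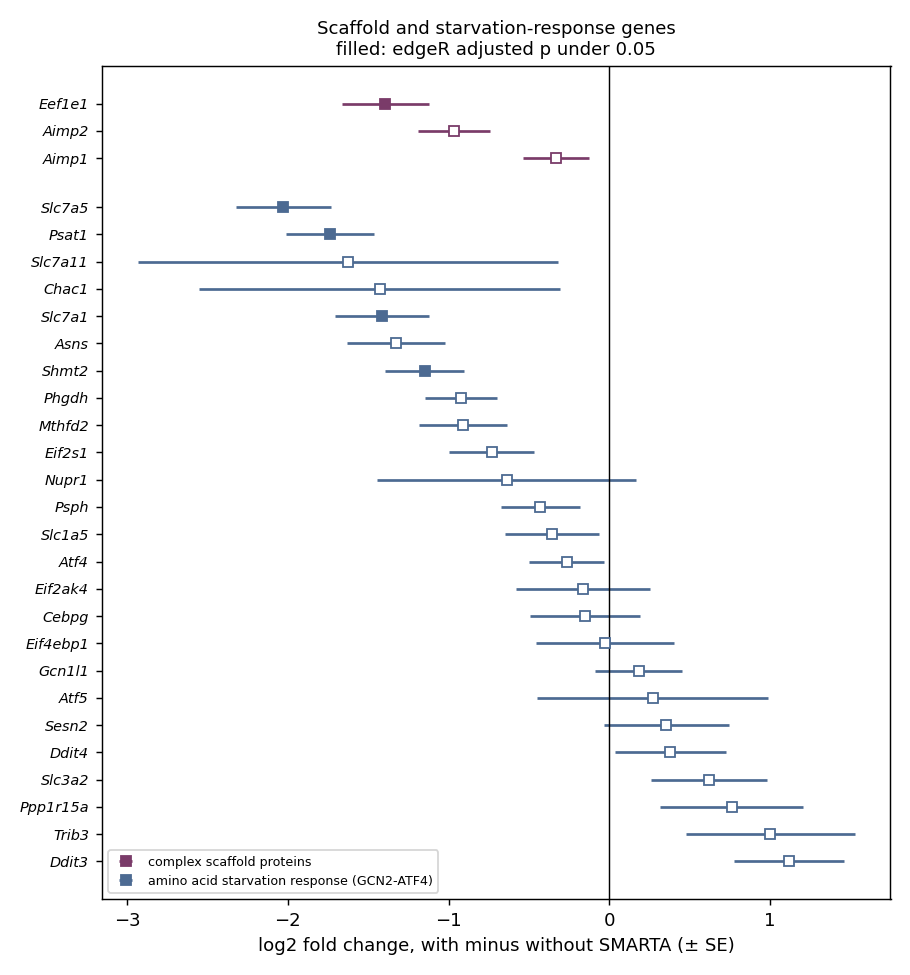
Log2 fold change (x axis, with minus without SMARTA, bars ± SE) of the 3 scaffold genes and the 25 tested genes of the starvation list, sorted within each block. Filled squares mark the 5 genes that passed at an edgeR adjusted p under 0.05 (Eef1e1, Slc7a5, Psat1, Slc7a1 and Shmt2), all left of 0, while Trib3 and Ddit3 lie farthest to the right.

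In the list of the MYC network and mTORC1, 0 of 11 tested genes were called lower and 1 higher (1.63% and 1.52% of all genes). The list had no common direction: 5 estimates were negative (50.2% of all genes) and 6 positive, with a median of 0.18. Without overlap, 1 gene lay lower and 2 higher (10.5% and 8.73% of all genes). Mxd1, a partner of MAX that opposes MYC, measured 33.4, 65.0, 52.9 and 23.75 CPM without and 107, 169 and 155 CPM with SMARTA (log2 1.71 ± 0.35 SE, edgeR adjusted p = 0.0424). The Mxd1 call was lost with no-SMARTA replicate 1, 3 or 4 left out (adjusted p = 0.123, 0.0855 and 0.0986) and with SMARTA replicate 2 or 3 left out (0.141 and 0.125). Myc measured 260.4, 366, 369.9 and 468 CPM without and 201, 184 and 61.6 CPM with SMARTA, without overlap (log2 -1.30 ± 0.40 SE, edgeR adjusted p = 0.122), and SMARTA replicate 3 was its lowest library. Rptor, named after its values were seen, encodes the mTORC1 subunit raptor and pointed the other way, at 21.2, 46.0, 44.4 and 52.0 CPM without and 184, 88.9 and 97.8 CPM with SMARTA, also without overlap (log2 1.59 ± 0.36 SE, edgeR adjusted p = 0.0539).

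Transcripts of cycling cells were lower in the same libraries as those of the cytosolic synthetases. All 17 cycling markers were lower in every library with SMARTA than in any library without (10.5% of all genes), and 12 were called lower (1.63% of all genes). They summed to 4360, 2125, 3872 and 3533 CPM without (3472 ± 960) and 557, 967 and 1143 CPM with SMARTA (889 ± 301). No-SMARTA replicate 2 was the lowest of its group here and in the cytosolic synthetase sum (3226 CPM). That library held the highest value of all libraries for 1 of the 20 cytosolic genes, Gars (48.0 CPM). Among the libraries with SMARTA the cycling sum ran from 557 to 1143 CPM and the cytosolic synthetase sum from 2844 to 2907 CPM. In bulk samples fewer cells of a type and less RNA per cell cannot be told apart, and the part of cycling in the synthetase values was not tested. T cell markers summed to 7404 to 9624 CPM without and 9630 to 12250 CPM with SMARTA, and 0 of 8 were called, but Cd8b1, Trac and Cd2 were higher in every library with SMARTA than in any without. The list for CD4 T cells summed to 38.1 to 94.0 CPM without and 124 to 147 CPM with SMARTA, and 2 of its 4 genes were higher with SMARTA without overlap (8.73% of all genes). These were Cd40lg, at 25.2 to 66.5 and 90.65 to 113 CPM, and Zbtb7b, at 7.64 to 22.4 and 25.9 to 45.4 CPM, whereas Cd4 stayed at or under 8.48 CPM and Foxp3 was at 0 in SMARTA replicate 1. Of the fibroblast and endothelial markers 0 of 7 were called, but Pecam1, which T cells also carry, was 74.2 to 114 CPM without and 141 to 208 CPM with SMARTA, and Col1a1 was at most 3.05 CPM. No other marker list (B cells, macrophages and monocytes, neutrophils, dendritic cells, NK cells, red cells and melanoma) had a gene called or apart between the groups. The part of these markers was not tested either.

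Promoter sequences were read from RefSeq (GRCm38.p6) in windows of 250 bases before to 50 bases after the start of transcription, which matched 27 of the 36 members, 13 cytosolic and 14 mitochondrial. Those not matched were Cars, Hars, Lars, Nars, Rars, Vars, Wars, Hars2 and Pars2. The motifs were chosen with the expression values known and were searched on both strands. The C/EBP-ATF response element TGATGNAA, through which ATF4 acts on starvation genes, was present in 5 of 13 cytosolic windows (Aars, Gars, Iars, Tars and Yars), in 0 of 14 mitochondrial windows and in 4.51% of the windows of 27025 genes. The stretches around the matches are shown for the 4 of these genes that are among those without overlap in expression. Capitals mark the motif, on either strand, and each stretch reads 5′ to 3′ along the gene's own strand.
Tars (chr15:11399655-11399684, minus strand, 15 bases before the start): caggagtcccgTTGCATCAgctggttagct
Gars (chr6:55037960-55037989, plus strand, 30 bases before the start): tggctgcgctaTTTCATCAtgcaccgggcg
Iars (chr13:49682126-49682155, plus strand, 8 bases after the start): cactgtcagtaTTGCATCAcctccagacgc
Yars (chr4:129189895-129189924, plus strand, 4 bases after the start): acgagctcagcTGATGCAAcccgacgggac
Asns, for comparison (chr6:7693214-7693243, minus strand, 23 bases before the start): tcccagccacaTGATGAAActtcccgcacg

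Read on the strand that begins with the motif, the site is TGATGCAA in Tars, Iars and Yars, and TGATGAAA in Gars and Asns. The MYC-type E-box CACGTG was present in 4 of 13 cytosolic windows (Aars, Farsb, Iars and Tars), in 1 of 14 mitochondrial windows (Ears2) and in 8.09% of all windows, and it shared no base with a response element. Farsb, which has the E-box only, carries it 39 bases before the start.
Farsb (chr1:78488919-78488948, minus strand): ttagacaggcatCACGTGagacagcccaag
Tars, the gene with the smallest p, holds both motifs, and the 250 bases before its start are shown with the response element in capitals.
Tars (chr15:11399659-11399908, minus strand): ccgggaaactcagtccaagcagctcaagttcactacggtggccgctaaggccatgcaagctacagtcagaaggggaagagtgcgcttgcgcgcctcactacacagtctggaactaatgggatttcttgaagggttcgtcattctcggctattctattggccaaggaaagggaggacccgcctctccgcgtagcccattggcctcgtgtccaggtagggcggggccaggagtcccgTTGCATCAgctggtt

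The median log2 fold change was -0.56 in the 5 cytosolic genes with the response element and -0.30 in the 8 with a window but no match, and 4 of 5 against 1 of 8 were without overlap, beside 10.5% of all genes that were lower without overlap. Rars, Lars and Hars, also without overlap, had no window and are left out of the motif splits. For the E-box the medians were -0.66 in 4 genes and -0.315 in 9, and 3 of 4 against 2 of 9 were without overlap. These are descriptions of few genes that partly carry both motifs. A match is not a bound site, and its absence says only that these letters are not in the window. The interferon-stimulated response element was found in 1 of 13 cytosolic windows (Qars) and 0 of 14 mitochondrial windows, against 3.99% of all windows.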

How the data were processed

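The submitters' processing notes name featureCounts 1.6.2, STAR 2.6.0c and the build GRCm38.p6. Per the labels' protocols, RNA was amplified with SMART-seq V4. Per the file headers, the counting by the authors joined GENCODE exons by gene name and ignored strand, and pairs matching several places or genes were left out. The deposited values are raw counts, not normalized. The members, lists, motifs and tests were chosen with earlier results of these data known. Libraries were grouped by title, and no 2 of a group agreed within sampling noise. In R 4.3.3, edgeR 4.0.16 (filterByExpr, minimum count 10 and total 15, TMM, robust glmQLFit and glmQLFTest, two-sided) compared the groups over all genes, with no covariate. SE is the absolute log2 fold change over the root of F. The fit was tested on simulated counts. Alternatives were other scalings and filters, DESeq2 1.42.0, limma-voom (limma 3.58.1), another threshold, a block for the replicate number, and fits that omit 1 library. Given with every value were, by rule, the 6 members of each class with the smallest p, Wars, Gars, Kars, Eprs, the extremes per length, and per list up to 5 called genes or else the 2 with the smallest p, with Atf4, Myc, Aimp1, Aimp2 and Eef1e1. Hars and Yars complete the count without overlap. Exons of 13 members share bases with another gene, at most 24.2% (Iars2).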

Additional observations from a re-analysis of the deposited data

Results flagged for a closer look

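Yars in replicate 1 of the group without SMARTA, at 174.2 CPM, stood apart from the other 3 libraries of its group, which lay at 122.6 to 129.6 CPM. The gap was 0.864 of the group's range, above Dixon's 95% limit for 4 samples. It was the only 1 so marked of 58 values, those of the 36 genes, 20 related genes and 2 sums, and chance alone marks about 1 in 20 groups.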

How the results depend on the processing

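None of the 16 mitochondrial genes, and no cytosolic gene in the higher direction, was called under any setting. Cytosolic genes called lower, 0 by the main test, were 1 with upper-quartile factors (Tars), 2 with library totals (Farsb and Tars), 3 with a stricter filter, 5 CPM or more in 3 or more libraries (Farsb, Rars and Tars), 4 with DESeq2, 5 with sample quality weights, and 0 to 1 with 1 library left out. Of all genes, those settings in turn called 1.85%, 2.5%, 5.23%, 5.74%, 4.81% and 0.0453% to 2.37% lower, against 1.63% by the main test. The cytosolic median log2 fold change was -0.502 with library totals, where the median of all genes was -0.158. With 1 library left out it was -0.44 to -0.335, where the median of all genes was -0.0988 to 0.0253. The mitochondrial median, -0.146 by the main test, was -0.305 with library totals, -0.25 with the replicate block, -0.234 with the stricter filter, -0.026 with GC trends removed, -0.00104 with quality weights and -0.207 to -0.0163 with 1 library left out. All genes called, 500 by the main test, were 842 with that filter, 1740 with DESeq2, 1537 with quality weights, 7 at an adjusted p under 0.01, 1135 with GC trends removed, and 17 to 907 with 1 library left out. Related genes called lower, 5 by the main test, were 9 with library totals and with GC trends removed, 11 with the stricter filter, DESeq2 and quality weights, 0 at 0.01, and 0 to 10 with 1 library left out. Related genes called higher, 1 by the main test, were 0 with library totals and at 0.01, 2 with upper-quartile factors, no filter, the stricter filter and GC trends removed, 3 with DESeq2, 4 with quality weights, and 0 to 2 with 1 library left out. Lars2 turned to -0.111 with library totals, -0.0418 with the stricter filter, -0.0488 with quality weights and -0.0312 with the replicate block (-0.163 to 0.228 with 1 library left out). Sepsecs turned to 0.0304 with GC trends removed (-0.614 to 0.133 with 1 library left out). The causes were not tested. The replicate numbers did not pair the libraries: deviations of libraries with the same number had r = -0.139, 0.0263 and -0.274. With the replicate block 0 of all genes, and so 0 related genes in either direction, were called. Over all fold changes of single genes and alternatives, 588 kept direction and side of the threshold, 31 became calls, 37 lost a call and 9 turned.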
